A study of Mus musculus with 4 samples.

Results

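The 10 genes described here encode the D cyclins (Ccnd1, Ccnd2 and Ccnd3), the kinases they activate (Cdk4 and Cdk6), 4 inhibitors of cyclin-dependent kinases (Cdkn1a, Cdkn1b, Cdkn2c and Cdkn2d) and the retinoblastoma protein (Rb1). The genes were chosen with earlier results of these data known. Their probe sets were taken by gene symbol alone, every one that the platform annotation gives to 1 of these symbols. That gave 27 of the 34945 probe sets with a single symbol, and 10 of 18193 genes. RNA came from double positive thymocytes, cells at the stage that carries both CD4 and CD8, of 2 Ikf/f CD4-Cre+ mice (Cre-positive) and 2 Ikf/f CD4-Cre- mice (Cre-negative), 1 Affymetrix array per mouse. Mice of both groups carry the Ikf allele on both chromosomes, and only the Cre-positive mice carry the CD4-Cre transgene, which is driven from Cd4 regulatory sequence and is meant to delete Ikaros (Ikzf1) from late thymocyte development onward. No Cre-positive mouse without the Ikf allele was included, so effects of Cre and of Ikaros loss cannot be told apart; the sources used here do not give age or cell isolation.

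Entry into the cell cycle from G1 is set by this group of proteins. A D cyclin binds Cdk4 or Cdk6, the complex phosphorylates the retinoblastoma protein, and E2F transcription factors are released to switch on the genes of DNA replication. The INK4 inhibitors, among them the products of Cdkn2c and Cdkn2d, bind Cdk4 and Cdk6 directly, while the Cip/Kip inhibitors, among them the products of Cdkn1a and Cdkn1b, bind complexes of cyclins with their kinases. In the thymus, cyclin D3 is the D cyclin needed for the burst of division that follows pre-T cell receptor signalling, after which most double positive cells are small and no longer divide.

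Values are RMA signals on the log2 scale, and a difference is the Cre-positive mean minus the Cre-negative mean, with the standard error (SE) of limma. A probe set was tested when its mean over the 4 arrays was at or above 4.76, and it was called at a Benjamini-Hochberg adjusted p under 0.05 over all 20967 tested probe sets. Ikzf1, the targeted gene, read 10.80 and 10.62 in Cre-positive samples 1 and 2, against 12.40 and 12.08 in Cre-negative samples 1 and 2 in its brighter probe set (difference −1.53 ± 0.16; limma adjusted p = 0.0346). Its dimmer probe set overlapped between groups, at 5.35 and 5.74 in Cre-positive mice and 5.73 and 5.81 in Cre-negative mice. That difference was −0.22 ± 0.17 (limma adjusted p = 0.507). Cre-negative sample 2 stood apart in sex-linked transcripts, with Xist at 12.75 against 4.73 to 5.37 on the other 3 arrays, so results without it are given beside the main ones. With 2 arrays on each side, the smallest p of an exact permutation test on 1 probe set is 0.33, and fewer cells of a type cannot be told apart from less RNA per cell.

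Ccnd1 and Cdkn1a rose in the Cre-positive thymocytes, each in 1 probe set, while the probe sets of Ccnd3 and Cdkn2d were lower without passing. Of the 27 probe sets 22 were bright enough to be tested, with at least 1 for each of the 10 genes. Called were 2, both higher, where 0.868% of all tested probe sets were called, 0.639% higher and 0.229% lower. At an unadjusted p under 0.05 there were 12 of 22, 9 higher and 3 lower, where the share of all tested probe sets was 21.2%, 12.1% higher and 9.06% lower. Arrays of the groups were separate for 17 of 22 (14 higher, 3 lower), against 53.2% of all tested probe sets, 31.5% higher and 21.8% lower. Of the 22 probe sets 1, from Ccnd2, was tested only because its Cre-positive arrays lifted its mean over the filter; without it these counts were 11 of 21 (8 higher, 3 lower) and 16 of 21 (13 higher, 3 lower). The median difference was 0.37 over the 22 probe sets and 0.04 over all tested probe sets. In the same fit, by the brightest probe set of each gene, 0 of 10 genes were called in limma, where 0.885% of all genes were, 0.747% higher and 0.137% lower. At an unadjusted p under 0.05 there were 3 higher and 2 lower, where 19.4% of all genes passed, 13.4% higher and 5.96% lower. Arrays were separate for 8 of the 10 genes, against 52.9% of all genes. Probe sets of 1 gene can read the same transcripts and cannot be taken as independent.

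**Figure D1:**
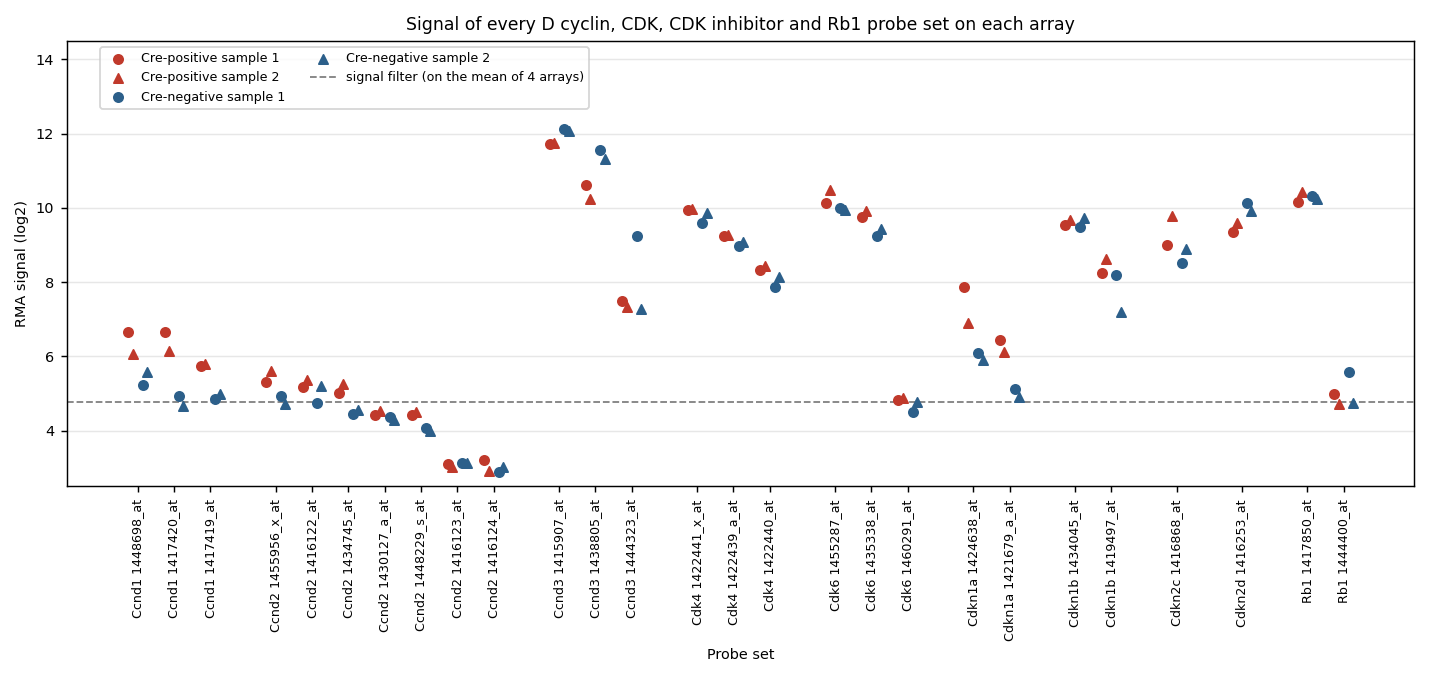
RMA signal (log2, vertical axis) of all 27 probe sets, with Cre-positive arrays in red to the left of Cre-negative arrays in blue, 1 point per array; the dashed line is the filter of 4.76 on the mean of the 4 arrays. Ccnd1 and Cdkn1a sit higher in red, and Ccnd3 1415907_at, Ccnd3 1438805_at and Cdkn2d sit lower in red. Ccnd3 1444323_at overlaps between groups, and 4 of 7 Ccnd2 probe sets lie under the line.

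Ccnd1 encodes cyclin D1, which is little used by lymphocytes but is the main D cyclin of many epithelial and mesenchymal cells. Its probe set 1417420_at read 6.65 and 6.14 in Cre-positive samples 1 and 2, against 4.95 and 4.66 in Cre-negative samples 1 and 2. The groups were far apart, and the Cre-negative arrays lay around the filter. The difference was 1.59 ± 0.21 (SE, n = 2 per group; limma adjusted p = 0.049). The other 2 probe sets went the same way without passing. Probe set 1448698_at read 6.66 and 6.06 in Cre-positive mice and 5.22 and 5.58 in Cre-negative mice, a difference of 0.96 ± 0.24 (limma adjusted p = 0.112). Probe set 1417419_at read 5.74 and 5.80 in Cre-positive mice and 4.86 and 4.99 in Cre-negative mice, a difference of 0.84 ± 0.12 (limma adjusted p = 0.0564). In all 3 probe sets both Cre-positive arrays lay above both Cre-negative arrays, as in 31.5% of all tested probe sets. The mean of the 3 differed by 1.13 (limma adjusted p = 0.037, with 1 value per gene). The call of 1417420_at was lost when any single array was left out, with differences from 1.34 to 1.85 and adjusted p from 0.101 to 0.188; without Cre-negative sample 2 the difference was 1.45.

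Ccnd2 encodes cyclin D2, the D cyclin of many lymphocytes leaving rest. It lay at the bottom of the signal range: 4 of its 7 probe sets had a mean under the filter, with array values between 2.88 and 4.54. The 3 tested probe sets were higher without passing. Probe set 1455956_x_at read 5.31 and 5.62 in Cre-positive samples 1 and 2, against 4.94 and 4.73 in Cre-negative samples 1 and 2 (difference 0.63 ± 0.16, SE; limma adjusted p = 0.112). Probe set 1434745_at read 5.01 and 5.27 in Cre-positive mice, against 4.45 and 4.56 in Cre-negative mice (0.63 ± 0.14; adjusted p = 0.0939 in limma). The groups were separate in both. Both Cre-negative values of 1434745_at lay under the filter of 4.76, so this probe set was tested only through its Cre-positive arrays. In 1416122_at the groups overlapped, at 5.18 and 5.35 in Cre-positive mice and 4.75 and 5.21 in Cre-negative mice, with a difference of 0.29 ± 0.19 (limma adjusted p = 0.447). Without Cre-negative sample 2 the differences of 1455956_x_at, 1434745_at and 1416122_at were 0.53, 0.69 and 0.51, and without Cre-negative sample 1 that of 1416122_at was 0.06.

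Ccnd3 encodes cyclin D3, the D cyclin of thymocyte expansion, and all of its 3 probe sets were lower on average in the Cre-positive mice. Limma called 0 of them, and 2 had an unadjusted p under 0.05, where 9.06% of all tested probe sets were lower at that p. Probe set 1438805_at read 10.62 and 10.24 in Cre-positive samples 1 and 2, against 11.57 and 11.32 in Cre-negative samples 1 and 2. The groups were separate, and the difference was −1.01 ± 0.18 (SE, n = 2 per group; limma adjusted p = 0.0644), or −1.13 without Cre-negative sample 2. The brightest, 1415907_at, read 11.72 and 11.75 in Cre-positive mice against 12.13 and 12.08 in Cre-negative mice, a difference of −0.37 ± 0.12 (limma adjusted p = 0.164). Its arrays agreed closely within each group, with SDs of 0.02 in Cre-positive and 0.03 in Cre-negative mice. The dimmest, 1444323_at, read 7.50 and 7.33 in Cre-positive mice and 9.23 and 7.27 in Cre-negative mice. Here Cre-negative sample 1 alone was high, the groups overlapped, and the difference of −0.84 ± 0.60 (limma adjusted p = 0.489) was 0.15 without that array and −1.82 without Cre-negative sample 2.

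Because Ccnd3 has 2 annotated start sites, both windows of its promoter are shown, each running from 250 bases before to 50 bases after the start (RefSeq, GRCm38.p6, plus strand). Capitals mark GGGAA on either strand, the core letters of sites that Ikaros is known to bind. The upstream window held no match and the downstream window held 2, at positions −200 and 29 from the start site.
Ccnd3 upstream start, chr17:47504801-47505100: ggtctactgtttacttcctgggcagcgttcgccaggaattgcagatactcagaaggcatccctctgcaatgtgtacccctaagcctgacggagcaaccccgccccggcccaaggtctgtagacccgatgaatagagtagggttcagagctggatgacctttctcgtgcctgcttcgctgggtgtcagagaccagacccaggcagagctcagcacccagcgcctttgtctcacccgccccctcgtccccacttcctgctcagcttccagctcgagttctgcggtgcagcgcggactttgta
Ccnd3 downstream start, chr17:47593217-47593516: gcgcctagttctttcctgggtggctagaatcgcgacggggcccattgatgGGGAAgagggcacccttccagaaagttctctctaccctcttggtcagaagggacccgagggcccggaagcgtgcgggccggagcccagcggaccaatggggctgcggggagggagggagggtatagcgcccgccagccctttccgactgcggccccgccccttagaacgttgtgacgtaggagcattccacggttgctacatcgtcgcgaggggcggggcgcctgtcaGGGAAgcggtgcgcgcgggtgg

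Cdk4 and Cdk6 encode the kinases that D cyclins activate, and Cdk6 is the one that thymocytes are known to need for expansion. Limma called 0 of their 5 tested probe sets, and 2 had an unadjusted p under 0.05, both higher, where 12.1% of all tested probe sets were. In all 5 both Cre-positive arrays lay above both Cre-negative arrays, as in 31.5% of all tested probe sets. Probe sets of 1 gene are not independent. Cdk6 probe set 1435338_at read 9.74 and 9.91 in Cre-positive samples 1 and 2, against 9.24 and 9.44 in Cre-negative samples 1 and 2 (difference 0.49 ± 0.14, SE; limma adjusted p = 0.138). The brightest Cdk6 probe set, 1455287_at, read 10.14 and 10.49 in Cre-positive mice against 9.98 and 9.95 in Cre-negative mice (0.35 ± 0.16; limma adjusted p = 0.282). Cre-positive sample 1 stood closer to the Cre-negative arrays than to Cre-positive sample 2. The Cdk4 probe sets differed by 0.22 to 0.38, with limma adjusted p from 0.217 to 0.426. The largest of them, 1422440_at, read 8.33 and 8.44 in Cre-positive mice and 7.87 and 8.14 in Cre-negative mice. Without Cre-negative sample 2 the Cdk4 probe sets differed by 0.29 to 0.52 and the Cdk6 probe sets by 0.33 and 0.59. Without Cre-negative sample 1 the difference of Cdk4 1422441_x_at was 0.09, against 0.22 on all arrays, and that of 1422440_at was 0.25. Cdk6 1455287_at differed by 0.17 without Cre-positive sample 2 and by 0.52 without Cre-positive sample 1. Another Cdk6 probe set, 1460291_at, lay under the filter at 4.82 and 4.89 in Cre-positive mice and 4.49 and 4.79 in Cre-negative mice.

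Cdkn1a encodes the Cip/Kip inhibitor p21, a target of p53 and of several cytokine and stress pathways, which arrests cells in G1. Probe set 1421679_a_at read 6.44 and 6.11 in Cre-positive samples 1 and 2, against 5.13 and 4.92 in Cre-negative samples 1 and 2. It rose by 1.25 ± 0.17 (SE, n = 2 per group; limma adjusted p = 0.0492). Its brighter probe set 1424638_at read 7.88 and 6.89 in Cre-positive mice and 6.09 and 5.89 in Cre-negative mice. The groups were again separate, but the Cre-positive arrays lay apart from each other, and the difference, 1.39 ± 0.32, missed the threshold (limma adjusted p = 0.0987) and ran from 0.90 without Cre-positive sample 1 to 1.89 without Cre-positive sample 2. Leaving out any single array kept 1421679_a_at between 1.08 and 1.41 and ended its call (adjusted p from 0.0999 to 0.217 in limma); without Cre-negative sample 2 it differed by 1.14. The call also ends when probe sets with a suffix for shared transcripts (a, s or x) are left out, since 1421679_a_at is one of them.

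Cdkn1a likewise has 2 annotated start sites, 2790 bases apart, and both windows are shown because both of its probe sets were higher on the same arrays (RefSeq, GRCm38.p6, plus strand). The upstream window contains a pair of p53 half-site cores (CATG, any 6 bases, CATG), searched for after the window had been read and marked in capitals, beginning at position −48. In the downstream window capitals mark GGGAA on either strand, with 2 matches at positions −117 and 45.
Cdkn1a upstream start, chr17:29090729-29091028: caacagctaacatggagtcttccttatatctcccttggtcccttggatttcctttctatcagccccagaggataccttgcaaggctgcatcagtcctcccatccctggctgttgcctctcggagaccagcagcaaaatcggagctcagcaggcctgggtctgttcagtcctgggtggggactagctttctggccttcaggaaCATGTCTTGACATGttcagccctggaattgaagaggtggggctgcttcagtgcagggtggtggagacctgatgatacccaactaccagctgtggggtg
Cdkn1a downstream start, chr17:29093519-29093818: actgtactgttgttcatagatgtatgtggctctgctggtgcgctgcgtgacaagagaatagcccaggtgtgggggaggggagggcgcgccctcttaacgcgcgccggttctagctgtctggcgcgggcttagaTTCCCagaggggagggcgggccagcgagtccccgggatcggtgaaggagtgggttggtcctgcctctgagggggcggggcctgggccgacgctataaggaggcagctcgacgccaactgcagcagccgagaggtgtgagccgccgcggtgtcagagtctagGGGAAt

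Cdkn1b encodes p27, the Cip/Kip inhibitor that holds resting lymphocytes out of cycle, and its 2 probe sets disagreed. The brighter, 1434045_at, read 9.54 and 9.68 in Cre-positive samples 1 and 2 and 9.49 and 9.74 in Cre-negative samples 1 and 2, a difference of −0.01 ± 0.14 (SE; limma adjusted p = 0.989). The Cre-positive arrays lay between the Cre-negative ones. The dimmer, 1419497_at, read 8.23 and 8.63 in Cre-positive mice and 8.19 and 7.19 in Cre-negative mice, a difference of 0.74 ± 0.34 (limma adjusted p = 0.29) that was 0.25 without Cre-negative sample 2 and 1.24 without Cre-negative sample 1. Cre-negative sample 2 alone was low.

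Cdkn2c and Cdkn2d encode the INK4 inhibitors p18 and p19, and their single probe sets went in opposite directions without passing. Cdkn2c read 9.003 and 9.79 in Cre-positive samples 1 and 2, against 8.53 and 8.89 in Cre-negative samples 1 and 2 (difference 0.68 ± 0.28, SE; limma adjusted p = 0.25). Cre-positive sample 1 stood only just above Cre-negative sample 2. Cdkn2d read 9.36 and 9.60 in Cre-positive mice, against 10.13 and 9.91 in Cre-negative mice, with separate groups and a difference of −0.54 ± 0.15 (limma adjusted p = 0.132). With single arrays left out Cdkn2c differed by 0.29 (without Cre-positive sample 2) to 1.08 (without Cre-positive sample 1) and Cdkn2d by −0.66 to −0.42; without Cre-negative sample 2 the differences were 0.87 and −0.65. The Cdkn2d promoter window is shown as that of the other gene that was lower (RefSeq, GRCm38.p6, minus strand); capitals again mark GGGAA on either strand, at positions −209 and 42.
Cdkn2d, chr9:21291160-21291459: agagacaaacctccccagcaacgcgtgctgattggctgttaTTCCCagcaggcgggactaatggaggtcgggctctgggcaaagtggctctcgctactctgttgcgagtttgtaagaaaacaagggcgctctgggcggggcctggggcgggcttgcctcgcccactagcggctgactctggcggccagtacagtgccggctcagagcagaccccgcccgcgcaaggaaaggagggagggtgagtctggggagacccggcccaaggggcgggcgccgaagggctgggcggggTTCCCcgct

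Rb1 encodes the retinoblastoma protein, the substrate of the D cyclin kinases. Its bright probe set 1417850_at read 10.16 and 10.43 in Cre-positive samples 1 and 2 and 10.32 and 10.25 in Cre-negative samples 1 and 2. The Cre-negative arrays lay inside the range of the Cre-positive ones, and the difference was 0.01 ± 0.14 (SE; limma adjusted p = 0.981). The dim probe set 1444400_at read 4.98 and 4.73 in Cre-positive mice and 5.59 and 4.75 in Cre-negative mice, again overlapping (−0.31 ± 0.29; limma adjusted p = 0.588). Without Cre-negative sample 2 these differences were −0.03 and −0.73.

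**Figure D2:**
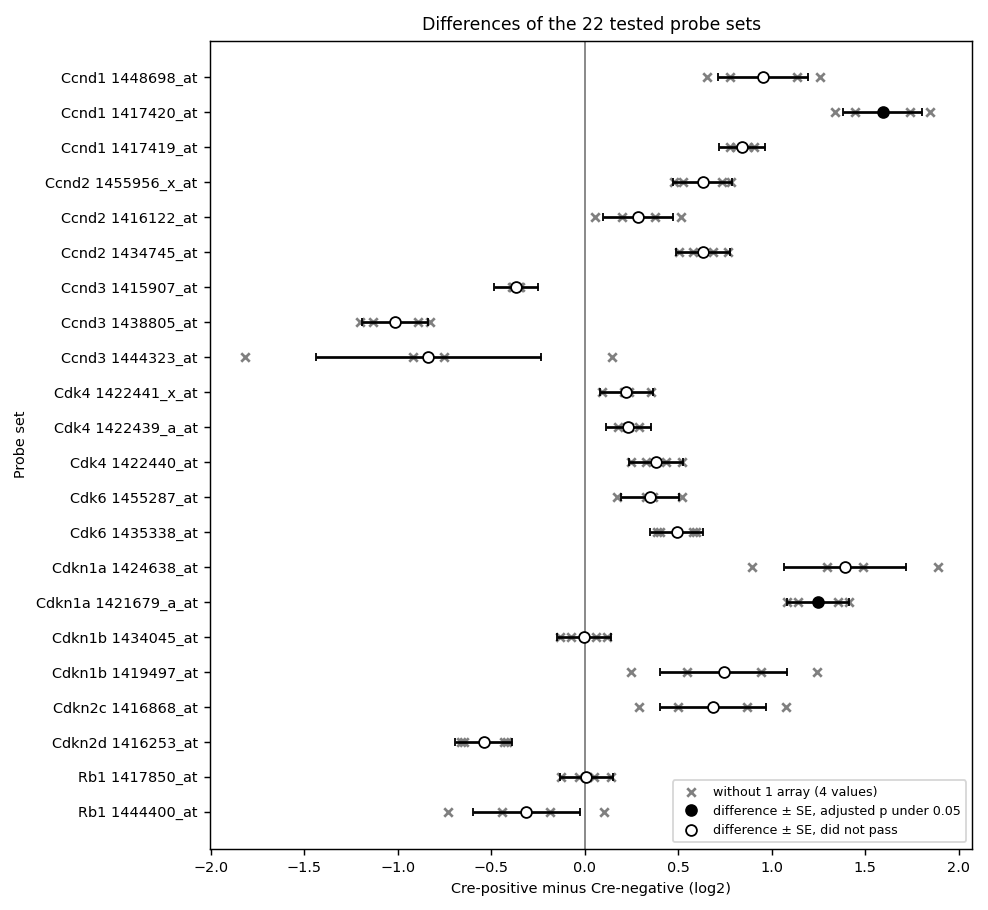
Cre-positive minus Cre-negative differences (log2, horizontal axis) of the 22 tested probe sets, as circles with the SE of limma as bars; crosses are the 4 values with 1 array left out. Filled circles, Ccnd1 1417420_at at 1.59 and Cdkn1a 1421679_a_at at 1.25, had an adjusted p under 0.05, and the crosses of Ccnd3 1444323_at spread from −1.82 to 0.15.

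Promoter windows were found for 7 of the 10 genes, 10 windows in all: Ccnd3, Cdk4, Cdk6, Cdkn1a, Cdkn1b, Cdkn2c and Cdkn2d. GGGAA, whose reverse complement is TTCCC, was present in 5 of the 10 windows and in 62.7% of all 32851 windows of the same length. The 5 windows belonged to Ccnd3, Cdk4, Cdkn1a, Cdkn2c and Cdkn2d, thus to genes that were higher and genes that were lower. The E2F motifs TTTCCCGC and TTTGGCGC, searched on both strands, were in 0 of the 10 windows, against 1.07% and 0.514% of all windows; the reverse complement of TTTCCCGC, GCGGGAAA, itself contains GGGAA. The CATG pair, which reads the same on both strands, was in 1 of the 10 windows and 0.712% of all windows. It was searched for after the Cdkn1a window had been read, so that match was known beforehand and the shares cannot be compared. A match describes letters and was not tested as a binding site.

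The partners of the D cyclins in G1 were mostly higher, but none passed. Of 23 genes (E-type cyclins, Ccna2, Cdk2, further inhibitors, Rb relatives, E2F and DP factors, and genes of inhibitor turnover) 21 were tested by their brightest probe set, and by limma 0 had an adjusted p under 0.05. At an unadjusted p under 0.05, 5 were higher and 0 lower (background 13.4% and 5.96%), and 8 of the 21 did not overlap between groups (6 higher, 2 lower), against 52.9% of all genes. The list median was 0.39, against 0.06 over all genes. Leaving out Cre-positive sample 2 brought it to 0.09 and leaving out Cre-negative sample 1 to 0.05, while it was 0.61 without Cre-positive sample 1. Cdkn1c, another Cip/Kip inhibitor, read 9.07 and 7.27 in Cre-positive samples 1 and 2, against 6.81 and 6.20 in Cre-negative samples 1 and 2. Its difference was 1.67 ± 0.58 (limma adjusted p = 0.19), and Cre-positive sample 1 carried most of it. Cks1b, a small subunit that helps degrade p27, read 11.01 and 11.74 in Cre-positive mice and 10.03 and 10.79 in Cre-negative mice (0.97 ± 0.34; limma adjusted p = 0.188). E2f7, a repressor of E2F targets, differed by 0.85 ± 0.55 with overlapping arrays (limma adjusted p = 0.44).

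Among 15 measured regulators of these genes 14 were tested and 0 had a limma adjusted p under 0.05. At an unadjusted p under 0.05, 5 were higher and 0 lower, where 13.4% of all genes were higher and 5.96% lower. The list median was 0.27, and it was 0.12 without Cre-negative sample 2. Myc, which is known to raise Ccnd2 and Cdk4 and to repress Cdkn1a, read 7.97 and 7.62 in Cre-positive samples 1 and 2, against 6.09 and 6.52 in Cre-negative samples 1 and 2. Its difference of 1.49 ± 0.20 fell just short here (limma adjusted p = 0.0508) and passed when each gene was tested once by its brightest probe set. Notch1, the receptor that is known to drive Ccnd3 in early thymocytes, differed by 1.10 ± 0.20 (limma adjusted p = 0.0663), and the quiescence factor gene Klf2 by 0.71 ± 0.26 (limma adjusted p = 0.199).

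Other p53 targets went in both directions. Of 14 measured 12 were tested and 0 were called by limma. At an unadjusted p under 0.05, 1 was higher and 3 were lower, where 13.4% of all genes were higher and 5.96% lower. The list median was −0.04, with values from −0.09 to 0.07 as single arrays were left out. Pmaip1, a proapoptotic target, differed by 0.87 ± 0.12 (limma adjusted p = 0.0529), and Zmat3 by 0.58 ± 0.34 with overlapping arrays. Sesn1 read 11.13 and 10.92 in Cre-positive mice and 11.45 and 11.44 in Cre-negative mice, a difference of −0.42 ± 0.13 (limma adjusted p = 0.16). Trp53 itself was not analysed here.

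**Figure D3:**
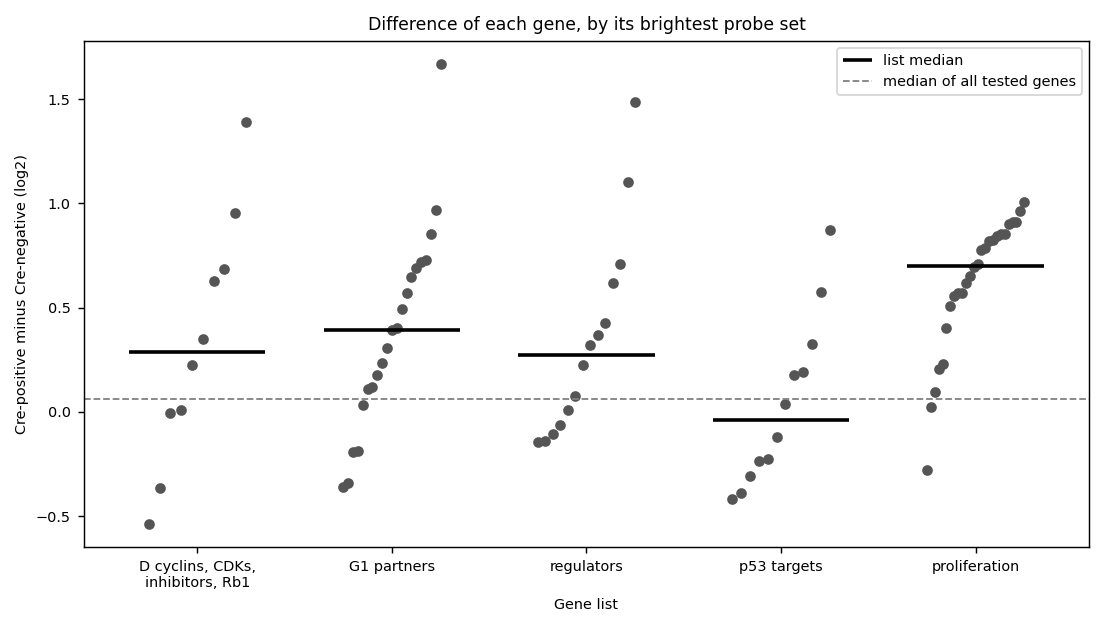
Cre-positive minus Cre-negative difference (log2, vertical axis) of each tested gene by its brightest probe set, with thick lines at list medians and a dashed line at 0.06, the median of all tested genes. Medians were 0.29 for the D cyclins, CDKs, inhibitors and Rb1, 0.39 for G1 partners, 0.27 for regulators, −0.04 for p53 targets and 0.70 for proliferation genes.

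Proliferation genes were mostly higher in the Cre-positive mice (25 of 26), and the arrays of the groups were separate for 7 of them, all higher, against 52.9% of all genes. The 26 measured proliferation genes averaged 8.90 and 9.73 in Cre-positive samples 1 and 2, against 8.25 and 9.15 in Cre-negative samples 1 and 2, so the mean of Cre-negative sample 2 lay above that of Cre-positive sample 1. By limma 0 of them were called, and the median was 0.70. At an unadjusted p under 0.05, 4 of the 26 were higher and 0 lower, where 13.4% of all genes were higher and 5.96% lower. Leaving out Cre-positive sample 2 brought the median to 0.22 and leaving out Cre-negative sample 1 to 0.23, while it was 1.19 with Cre-positive sample 1 removed and 1.20 with Cre-negative sample 2 removed. Cdc6, which loads the replication helicase, differed by 1.01 ± 0.50, the mitotic motor gene Kif11 by 0.97 ± 0.54 and Cdk1 by 0.91 ± 0.66. All 26 were lowest in Cre-negative sample 1. Of the 22 tested probe sets described above, 10 were lowest in that array, and 1 had the full array order of the proliferation list, Ccnd2 1416122_at, against 4.2% of all tested probe sets. With the proliferation level of each array as a covariate, a setting added after the data were seen that leaves 1 residual degree of freedom, Cdkn1a differed by 1.80 and 1.44 (limma adjusted p = 0.0473 and 0.0248) and Ccnd1 1417420_at by 1.87 (limma adjusted p = 0.0142). The covariate was computed from these same arrays, so a gene with its array order must lose most of its difference. Several G1 partners had that order, and their list median was −0.01 under this covariate, against 0.39 without it. The part of cell cycling in any difference was not tested. Under the same covariate the difference of Cdkn2c was 0.28, that of Ccnd2 1416122_at 0.06 and that of Ccnd3 1444323_at −0.05, each smaller by more than 1.5 times, as were Cdk4 1422441_x_at at 0.12 and Cdk4 1422440_at at 0.25. The difference of Rb1 1417850_at was −0.05 and that of Rb1 1444400_at 0.09, both turned in sign, while Ccnd3 1438805_at differed by −0.79 and Cdkn2d by −0.54.

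Markers of the labelled stage were high on all arrays. The 11 measured double positive genes averaged 11.82 and 11.88 in Cre-positive samples 1 and 2, against 11.98 and 12.07 in Cre-negative samples 1 and 2. Cd1d1 differed by −0.66 and Rag2 by −0.41. By the brightest probe set of each gene 0 of the 11 were called by limma, and a dimmer Themis probe set fell by 1.12. At an unadjusted p under 0.05, 0 of the 11 were higher and 2 lower, where 13.4% of all genes were higher and 5.96% lower. The mean levels of several lists of other cells were higher in both Cre-positive arrays, as Ccnd1 and Cdkn1a were, though not every member was. Macrophage and granulocyte markers (10 of 13 tested, 9 higher and 1 lower) averaged 5.58 and 6.13 in Cre-positive mice against 4.93 and 4.86 in Cre-negative mice. Cd68, Itgam and S100a9 had means under the filter. Ctss and Lyz2 rose, as did a dimmer Csf1r probe set. The brightest Csf1r probe set differed by 0.19 with overlapping arrays, Adgre1 by −0.03 and Fcer1g by 0.06. By unadjusted limma p under 0.05, 5 of the 10 were higher and 0 lower, against 13.4% and 5.96% of all genes. S100a8 read 8.38 in Cre-positive sample 2 and 4.02 to 4.52 on the other arrays, and S100a9 read 7.14 in that sample and 3.74 to 3.93 on the others. Dendritic cell markers (9 of 10 tested, 7 higher and 2 lower, with Xcr1 under the filter) averaged 6.15 and 6.20 in Cre-positive mice against 5.56 and 5.30 in Cre-negative mice. Where 19.4% of all genes had an unadjusted limma p under 0.05, 5 of these markers did, and limma called 0 at their brightest probe sets. Among them the class II genes H2-Aa and H2-Eb1 differed by 2.25 and 1.68, and dimmer probe sets of H2-Aa and H2-Ab1 rose. Flt3 differed by −0.16, Zbtb46 by −0.14 and Siglech by 0.01.

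Stromal and epithelial markers (6 of 11 tested, 3 higher and 3 lower, median 0.21; Pdgfrb rose by 1.05) averaged 5.38 and 5.16 in Cre-positive samples 1 and 2, against 4.72 and 4.77 in Cre-negative samples 1 and 2, while Col1a1, Col3a1, Pdgfra, Foxn1 and Psmb11 lay under the filter. Col1a2 read 11.55 and 8.01 in Cre-positive mice, against 5.18 and 5.33 in Cre-negative mice, the largest difference of this list (4.52; limma adjusted p = 0.101). Epcam differed by −0.13, Pecam1 by −0.04 and Krt5 by −0.0044. Cre-positive sample 1 was the higher of the Cre-positive arrays for Col1a2, for Cdkn1c, for both Cdkn1a probe sets and for 2 of 3 Ccnd1 probe sets, whereas 12 of the 22 tested probe sets were highest in Cre-positive sample 2. Genes for this order were picked after their values were seen, and 1 of 2 arrays must be the higher. The share of all tested probe sets with that order was not counted. Mature T cell genes (6 of 7 measured were tested, 5 higher and 1 lower, with Klf2 shared with the regulators) averaged 7.51 and 7.58 in Cre-positive mice against 6.65 and 6.63 in Cre-negative mice. Gimap4 rose by 3.71 and Il7r by 1.12, while Ccr7 differed by 0.04 and Cd5 by −0.27, both with overlapping arrays, and S1pr1 lay under the filter. By unadjusted limma p under 0.05, 4 of the 6 were higher and 0 lower, against 13.4% and 5.96% of all genes. Double negative stage genes (6 of 8 tested, 0 called by limma) averaged 6.25 and 6.55 in Cre-positive mice against 6.11 and 6.14 in Cre-negative mice. Of the 6 tested, 2 were higher, Dtx1 by 1.93 and Ptcra by 1.16, and 4 were lower, with a list median of −0.03. At an unadjusted limma p under 0.05, 2 were higher and 1 lower, where 13.4% of all genes were higher and 5.96% lower. B cell markers (3 of 4 measured tested, 0 called, 1 at an unadjusted p under 0.05) averaged 5.77 and 5.88 in Cre-positive mice against 5.60 and 5.52 in Cre-negative mice, with Ms4a1 at 0.71 and Pax5 at 0.18, and the 3 measured erythroid genes had no order by group (Alas2 at −0.03). The part of other cells in the differences of Ccnd1, Cdkn1a and the rest was not tested.

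**Figure D4:**
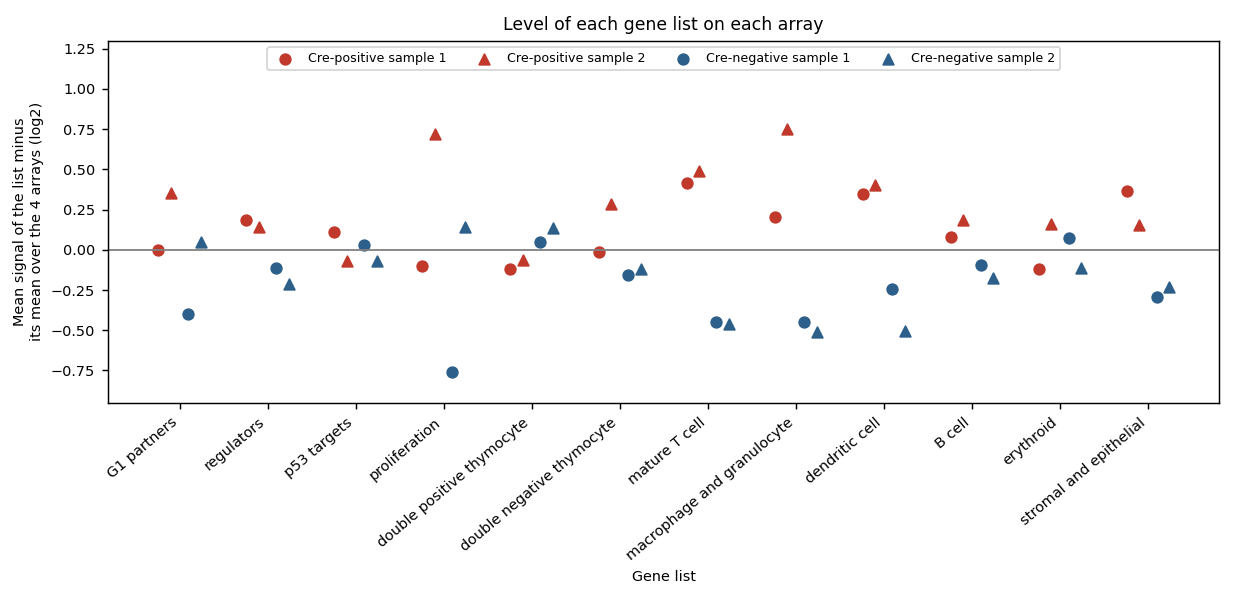
Mean signal of each gene list on each array minus its mean over the 4 arrays (log2, vertical axis), over the brightest probe set of every measured gene, with Cre-positive arrays in red to the left of Cre-negative arrays in blue. The proliferation list runs from −0.76 in Cre-negative sample 1 to 0.72 in Cre-positive sample 2 with the groups interleaved, while the means of the myeloid, dendritic, mature T cell and stromal lists are higher in both Cre-positive arrays. The means of the B cell, double negative and regulator lists are higher in both as well.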

How the data were processed

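The deposited table holds 1 log2 value per probe set and array, made by the authors with RMA as the submitters' processing notes say, version not given; the values lie between 2.18 and 14.4, and the base of the logarithm was taken from what RMA returns. RNA was amplified in 2 cycles per the labels' protocols. No counts or depth exist for arrays, and 2 arrays per group limit the precision. Symbols came from the platform annotation (34945 probe sets with 1 symbol, 932 with several, 9160 with none; 34741 matched RefSeq by Entrez identifier, 0 symbols changed). Probe sets with 1 symbol and a mean at or above the 40th percentile (4.76) were fitted together in limma 3.58.1 (R 4.3.3; lmFit, eBayes, two-sided, 2 residual degrees of freedom, prior 3.546), with Benjamini-Hochberg adjustment over 20967 probe sets. Lists used the brightest probe set of each gene.

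The member genes, lists and tests were chosen with earlier results of these data known. Named were all probe sets of the 10 genes, Ikzf1, every called list gene, and the 3 (pathway) or 2 (cell marker) genes of a list with the largest difference. Markers under the filter, Adgre1, Fcer1g, Ccr7, Cd5, Flt3, Zbtb46, Siglech, Epcam, Pecam1, Krt5 and Xist were named outside this rule, after their values were seen. Trp53 was named outside it without a value. Some listed genes were not analysed here. On data simulated for this comparison (20967 probe sets) the test recovered 31 of 100 probe sets with a log2 change of 1 and 95 of 100 with a log2 change of 2, with 9 of 135 calls false. Promoters came from RefSeq, GRCm38.p6. Figures were drawn with matplotlib 3.10.9. No batch is named for the arrays, so batch and group cannot be told apart. Alternatives varied the filter, probe set choice, scaling, variance prior and a replicate block, and left out each array.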

Additional observations from a re-analysis of the deposited data

How the results depend on the processing

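With 2 arrays per group the calls depended on single arrays, and the cause was not tested. Where a group is left with a single array, that array is assumed to vary like those of the other group. Leaving out 1 array at a time left 4 to 48 called probe sets in place of 182 (4 to 46 higher, 0 to 4 lower), with 7 without Cre-positive sample 1, 48 without Cre-positive sample 2, 21 without Cre-negative sample 1 and 4 without Cre-negative sample 2. It left 0 of the 22 D cyclin, CDK, inhibitor and Rb1 probe sets called in limma each time, where 11 had an unadjusted p under 0.05 without Cre-positive sample 1 (13.4% of all tested probe sets), 8 without Cre-positive sample 2 (12.5%), 9 without Cre-negative sample 1 (18.6%) and 15 without Cre-negative sample 2 (22.4%). Ikzf1 then differed by −1.69 to −1.37 (adjusted p from 0.0864 to 0.176), Ccnd1 1417420_at by 1.34 to 1.85 and Cdkn1a 1421679_a_at by 1.08 to 1.41.

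Called probe sets numbered 105 (64 higher) with the filter at the 60th percentile, 106 (70 higher) with suffixed (a, s or x) probe sets left out and 302 (109 lower) with a variance trend; 31 genes were called lower in a fit on the brightest probe set of each gene alone, 29 by the mean of all its probe sets, and 23 probe sets with the proliferation covariate. Of the 10 genes' values, 0 were called with the 60th percentile filter (6 of 14 at an unadjusted p under 0.05, against 24.4% of all tested; fewer were tested), 0 by the brightest probe set (5 of 10, against 20.6%) and 0 with suffixed (a, s or x) probe sets left out (10 of 18, against 20.9%), where Ccnd1 1417420_at had an adjusted p of 0.053 at 1.59; 1 was called by the mean of all probe sets, Ccnd1. In the regulators and in the p53 targets 1 gene each was called without a filter, with a variance trend, by the brightest probe set and by the mean of all probe sets; 1 regulator was called with arrays centred on their median and 1 G1 partner with the proliferation covariate.

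The labels number samples 1 and 2 in both groups without saying that a number marks a shared litter or day; deviations of same-numbered samples correlated at 0.154 across probe sets. With that number as a replicate block 1 residual degree of freedom was left. Of the 20967 tested probe sets 1475 were then called (826 higher, 649 lower). Among the 22, 6 were called and 14 had an unadjusted p under 0.05, against 24% of all tested probe sets at that p. Called list genes were 7 of 21 tested G1 partners, 2 of 14 regulators, 1 of 12 p53 targets and 13 of 26 proliferation genes.

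Of 249 recomputed differences of the 22 probe sets 238 kept their direction. With each array left out in turn, those that changed sign spanned −1.82 to 0.15 for Ccnd3 1444323_at (0.15 without Cre-negative sample 1), −0.13 to 0.12 for Cdkn1b 1434045_at (0.12 without Cre-negative sample 2 and 0.06 when Cre-positive sample 1 was left out), −0.12 to 0.14 for Rb1 1417850_at (−0.12 without Cre-positive sample 2, −0.03 without Cre-negative sample 2) and −0.73 to 0.10 for Rb1 1444400_at (0.10 without Cre-negative sample 1). Cdkn1b 1434045_at also turned by the mean of its probe sets (0.37), Rb1 1417850_at by that mean (−0.15), after median centring of the arrays (−0.022) and with the proliferation covariate (−0.052), and Rb1 1444400_at with that covariate (0.087).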
